A study of Mus musculus with 41 samples.

Results

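Thymic epithelial cells (TEC) taken 20 days after sham castration were compared with TEC taken 4 and 7 days after the same operation, across all genes. The contrast is the mean of the 3 sham arrays of day 20 minus the average of the day 4 mean and the day 7 mean, with 3 sham arrays on each early day. These 9 arrays, chosen by their labelled cell type, operation and day, belong to a series of 41 arrays from male C57Bl/6 mice. Every sham mouse was 9 to 12 months old, and in sham castration the gonads are left in place. The contrast asks what differs with time after sham surgery, the operation that the study uses as the control for castration.

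Further TEC arrays place the contrast: 3 arrays each from mice castrated 20, 4 and 7 days earlier, and 3 from unoperated mice of the same age. The 3 remaining TEC arrays, from unoperated young mice aged 5 to 6 weeks, entered the fit and the filter on dim genes but no comparison. All groups share the same preparation. The thymus was digested, CD45-negative EpCAM-positive cells were sorted, their RNA was isolated with a Qiagen RNeasy kit, its quality was read on an Agilent instrument, and cRNA labelled with biotin (Ambion) was hybridized to Illumina arrays. The labels do not say how many animals went into an array or whether the replicates of a group were separate mice, so p-values measure the spread between these arrays, which may be technical. Time after surgery and any difference in how the day 20 arrays were processed cannot be told apart.

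TEC form the scaffold in which T cells develop. Cortical TEC deliver Notch ligands, cytokines and peptides made by a dedicated proteasome, and so drive the growth and positive selection of thymocytes. Medullary TEC express tissue-restricted antigens, many of them under the regulator Aire, and present them so that self-reactive thymocytes are deleted or diverted. Mature medullary cells also take on forms resembling other epithelia, among them cornified keratinocyte-like cells, tuft cells, which are chemosensory cells with taste-type signalling, and neuroendocrine cells. Surgery raises glucocorticoids and acute-phase cytokines, to which the thymus is sensitive.

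Expression is given as normalized log2 intensity, so a difference of 1 is a doubling. Of 12176 genes on the TEC arrays, the 8277 whose mean in at least 1 TEC group lay above the median of all TEC values, 6.68, were tested with limma, and adjusted p-values are Benjamini-Hochberg values over these genes. Detection calls were not used here, so values under 6.68 may lie near the array background, where differences are compressed.

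The 9 sham arrays separated first by day. The first principal component held 69.5% of their variance and put the day 20 arrays at 0.425 to 0.489, against -0.412 to -0.135 for the 6 early arrays. The second held 14.1% and set apart array 3 of day 4, at 0.837, from the others, at -0.284 to 0.121. Correlations between arrays within a group were 0.992 to 0.994 at day 20, 0.922 to 0.973 at day 4 and 0.968 to 0.988 at day 7, and the median SD of a gene was 0.119, 0.253 and 0.172 at days 20, 4 and 7. Array 3 of day 4 also had the highest mean of the thymocyte, endothelial and fibroblast marker lists among the sham arrays (9.07, 8.55 and 8.54, against at most 6.83, 6.68 and 7.48 on the others), and 3 other TEC arrays, 2 of castrated day 4 and 1 unoperated, stood apart as well. Counts of 2 or more genes are therefore also given below without these 4 arrays where that moves them by over 1.5 times. The 4 were chosen after seeing the data, and unoperated array 2 was kept. On the second component of all 24 TEC arrays it lay at -0.533, and the 4 lay at -0.22 to 0.431. Counts of 1 gene are not followed in this way.

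At day 20, 1961 genes were higher and 2816 lower than at days 4 and 7, which is 23.7% and 34.0% of the genes tested and 57.7% together (4777 genes). Of these, 1954 changed at least 2-fold, 886 upward and 1068 downward. The 3 day 20 arrays lay above all 6 early arrays for 2085 genes (25.2%) and below all of them for 2823 (34.1%), together 59.3%, and 1788 and 2546 of these passed the test. The median difference over all genes tested was -0.12, and the median standard error was 0.193. In all, 3565 genes passed with the same sign against both days and against each early day alone. Without the 4 arrays that stood apart, 5270 genes passed.

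With so many genes called, a list of genes is read here against these shares. Of 45 lists of cell types and pathways, the clock genes and mitochondrially encoded genes held the largest shares of rises among lists with at least 5 genes tested. B-lineage, erythroid, tuft and histone genes held the largest shares of falls. The B-lineage genes had day 20 means under 6.68, so they entered the test only through other groups. So did 3 of 12 tuft genes and 2 of 5 erythroid genes.

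**Figure D1:**
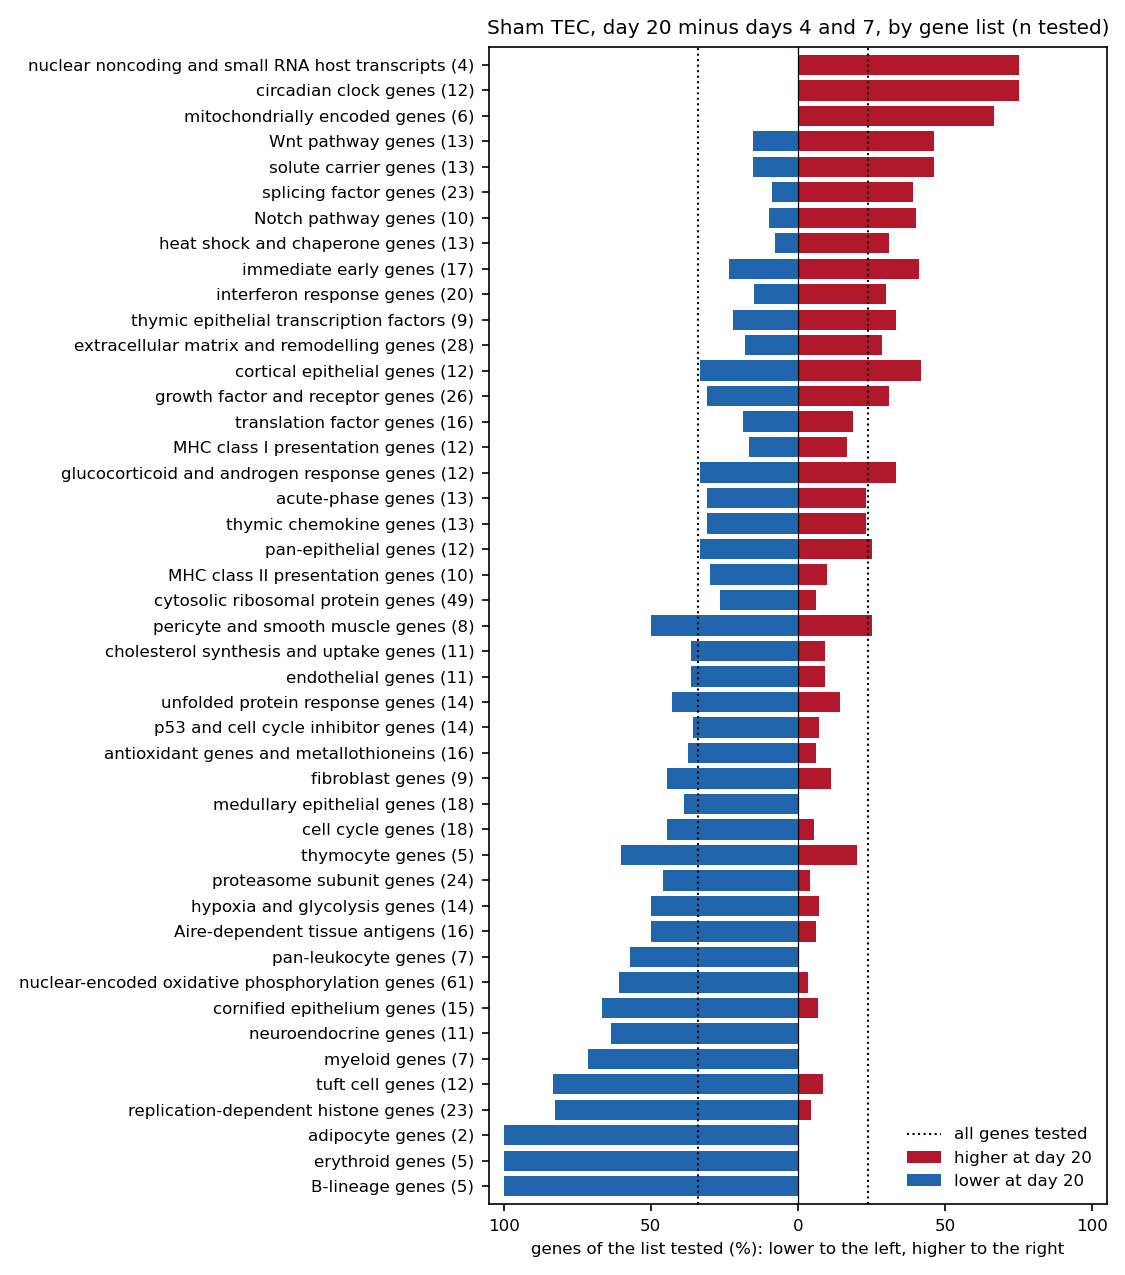
Share of each gene list that was higher (red, to the right) or lower (blue, to the left) at day 20 than at days 4 and 7 in sham TEC, limma adjusted p under 0.05, in percent of the list's genes tested (number in brackets). The dotted lines mark all 8277 genes tested, 23.7% higher and 34.0% lower. Clock genes lie furthest to the right of the lists with at least 5 genes and B-lineage and erythroid genes furthest to the left.

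The largest rises included a receptor and a co-receptor of 1 signalling pathway, transcripts of the mitochondrial genome and RNA-binding proteins. Rgma, a co-receptor for bone morphogenetic proteins (BMP), had 9.66, 9.67 and 9.65 at day 20, against 5.87, 4.61 and 5.04 at day 4 and 6.56, 6.10 and 6.20 at day 7. The 3 day 20 arrays lay far above the highest early array, with a difference of 3.93 ± 0.33 (SE; adjusted p = 5.4e-08) or 15.2-fold. Bmpr1a, a BMP type I receptor, had 9.11, 9.20 and 8.82 at day 20, against 6.29, 6.00 and 4.63 at day 4 and 6.37, 5.89 and 6.66 at day 7. It rose by 3.07 ± 0.29 (adjusted p = 1.8e-07), and its groups did not overlap either. Bmp7, a ligand of this pathway, fell, with 7.82, 7.52 and 7.80 at day 20 against 9.29, 9.53 and 8.96 at day 4 and 9.32, 9.37 and 9.31 at day 7.

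Igf2bp3, an RNA-binding protein of fetal tissues, had 8.20, 8.68 and 8.94 at day 20, against 5.53, 5.68 and 5.38 at day 4 and 5.20, 5.52 and 5.14 at day 7. It rose by 3.20 ± 0.23 (adjusted p = 1.3e-08). Tanc1, a scaffold protein, had 7.57, 7.78 and 7.97 at day 20, against 4.65, 4.58 and 4.47 at day 4 and 5.18, 4.45 and 4.63 at day 7. For both genes every early array was under 5.7, the lower part of the scale, and every day 20 array lay clear of them. Wasf2, an actin regulator, had 10.21, 10.22 and 10.00 at day 20 but ranged over 4.98 to 8.75 on the early arrays, so its rise of 3.17 ± 0.73 had a wide error. Zxda (3.26), Erich5 (3.23), Sltm (2.87), Suco (2.87) and Pabpc1 (2.89) completed the 12 largest rises, together with ATP6 and COX2, given with the mitochondrial genes. Pabpc1, the cytoplasmic poly(A)-binding protein, had 2 further probes whose difference ran the other way, so its direction depends on the probe.

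**Figure D2:**
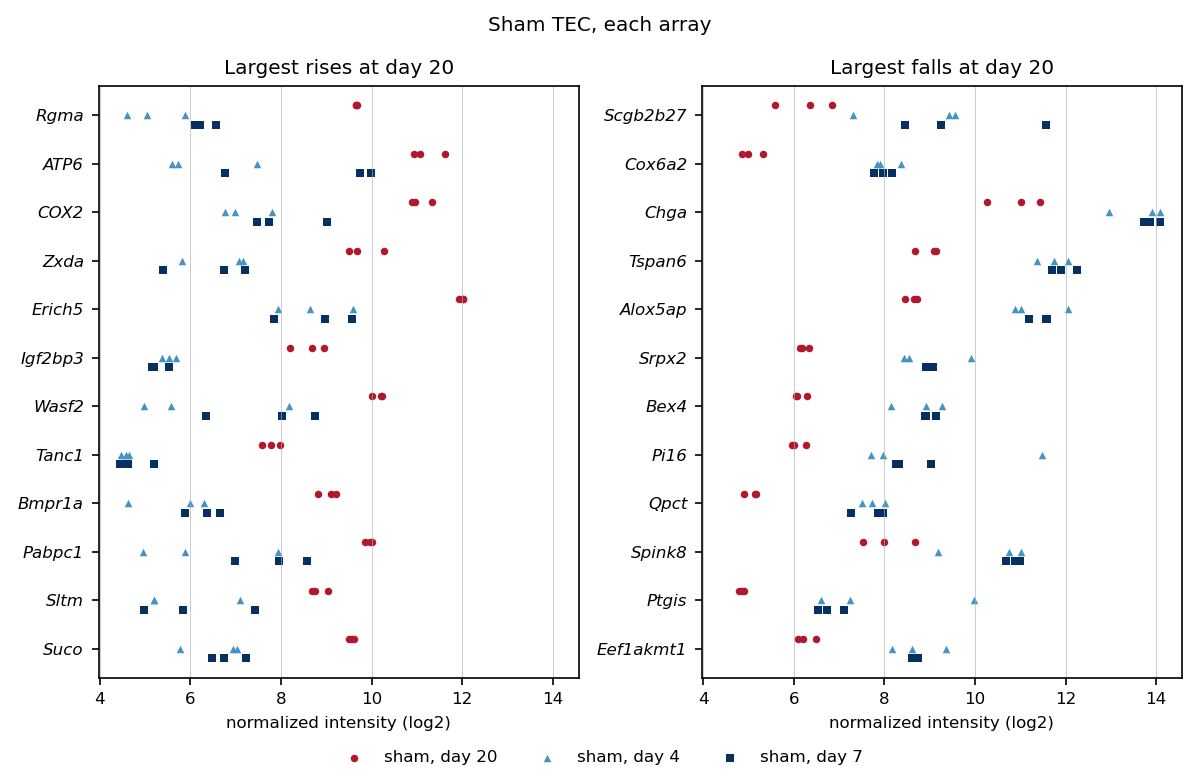
Normalized log2 intensity on each sham array for the 12 largest rises (left) and falls (right) whose day 20 arrays (red circles) did not overlap those of day 4 (light blue triangles) and day 7 (dark blue squares). Day 20 arrays lie close together, for example 9.65 to 9.67 for Rgma, while some early values spread widely, such as 4.98 to 8.75 for Wasf2.

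The largest falls included a hormone granule protein, enzymes of lipid mediators and a muscle-type mitochondrial subunit. Cox6a2, the muscle isoform of a cytochrome c oxidase subunit, had 5.33, 5.00 and 4.87 at day 20, against 7.84, 8.36 and 7.90 at day 4 and 8.17, 7.98 and 7.77 at day 7. Its difference was -2.94 ± 0.25 (adjusted p = 5.3e-08), a 7.65-fold fall with no overlap. Chga, chromogranin A of neuroendocrine granules, had 11.44, 10.28 and 11.01 at day 20, against 13.91, 14.09 and 12.96 at day 4 and 13.86, 13.72 and 14.09 at day 7. It fell by 2.86 on the log2 scale, with an SE of 0.30 (adjusted p = 4.2e-07). Tspan6, a tetraspanin, had 9.15, 8.68 and 9.11 at day 20, against 11.76, 12.05 and 11.37 at day 4 and 11.70, 11.90 and 12.26 at day 7. In all 3 genes every day 20 array lay below every early array, and for Cox6a2 the day 20 values lay under 6.68, near the array background.

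Alox5ap, which hands arachidonic acid to 5-lipoxygenase, had 8.65, 8.45 and 8.72 at day 20, against 10.89, 11.02 and 12.05 at day 4 and 11.18, 11.56 and 11.60 at day 7. Ptgis, prostacyclin synthase, had 4.80, 4.91 and 4.87 at day 20, against 6.61, 7.24 and 9.99 at day 4 and 7.12, 6.74 and 6.54 at day 7. Pi16, a gene of adventitial fibroblasts, had 6.00, 5.97 and 6.28 at day 20, against 7.69, 7.97 and 11.49 at day 4 and 9.03, 8.26 and 8.32 at day 7. For Ptgis and Pi16 the highest early value was that of array 3 of day 4, the array rich in fibroblast and endothelial markers, but the other 5 early arrays also lay above day 20. Srpx2 (-2.77), Bex4 (-2.75), Qpct (-2.65), Spink8 (-2.52) and Eef1akmt1 (-2.44) were further large falls. Scgb2b27, a secretoglobin, had the largest point estimate, -2.99 ± 1.22, but an adjusted p of 0.043 that lay between 0.051 and 0.13 when any 1 of 7 of the 9 sham arrays was left out.

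The sorted cells carried the epithelial genes their label calls for. Krt8, a keratin of simple epithelium, had 13.36, 13.19 and 13.33 at day 20, against 13.31, 13.35 and 13.09 at day 4 and 13.41, 13.21 and 12.89 at day 7. Krt14, a keratin of basal and medullary cells, had 14.09, 14.36 and 14.32 at day 20, against 14.23, 14.32 and 13.36 at day 4 and 14.20, 14.14 and 14.22 at day 7. Both keratins overlapped between the times, and neither Krt8 (0.08 ± 0.12, adjusted p = 0.59), Krt14 (0.18 ± 0.14, adjusted p = 0.28) nor Krt5 (0.31 ± 0.43) passed the test. The mean of 13 pan-epithelial genes on the arrays was 10.67 to 10.74 at day 20 and 10.47 to 10.86 on the early arrays. Epcam was not analysed here.

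Within the pan-epithelial list 3 of 12 genes tested rose and 4 fell, close to the 23.7% and 34.0% of all genes tested. Grhl2, a transcription factor of epithelial barrier genes, had 9.11, 9.14 and 9.23 at day 20, against 7.65, 7.32 and 6.20 at day 4 and 7.46, 7.49 and 8.01 at day 7, a rise of 1.81 ± 0.24. Cdh1, E-cadherin, rose by 1.02 ± 0.20, although another probe ran the other way. Elf3, an epithelial transcription factor of differentiating and inflamed epithelium, had 8.91, 8.83 and 8.87 at day 20, against 9.98, 10.21 and 10.36 at day 4 and 10.31, 10.42 and 10.09 at day 7. Elf3 and the tight junction genes Cldn3 (-1.25) and Cldn4 (-1.07) fell with no overlap, while Grhl2, Cdh1 and Esrp1 (1.27), a splicing regulator of epithelia, lay higher.

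Of 9 regulators of thymic epithelial identity tested, 3 were higher and 2 lower, against 23.7% and 34.0% of all genes. Trp63, which maintains epithelial progenitors, had 13.02, 13.18 and 12.86 at day 20, against 11.75, 11.33 and 11.60 at day 4 and 11.40, 11.52 and 12.04 at day 7. Its difference was 1.41 ± 0.19 (adjusted p = 4.5e-06), without overlap. Eya1 rose by 1.55 ± 0.18 and Pax1 by 1.30 ± 0.34, both genes of the pharyngeal pouch from which the thymus arises. Against day 7 alone Pax1 did not pass (0.87, adjusted p = 0.075). Fezf2, an Aire-independent regulator of tissue antigens in medullary TEC, fell by 0.56 on the log2 scale, with an SE of 0.12, and Tbx1 also fell (-0.84). Foxn1, the master regulator of TEC, was dim, with means of 5.48 at day 20 and 4.76 at days 4 and 7, and was not tested.

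Cortical genes were mixed, 5 higher and 4 lower of 12 tested, against 23.7% and 34.0% of all genes. The number lower was 1 when array 2 of day 20 was left out. It was 2 when array 1 or 3 of day 20 or array 3 of day 7 was. Prss16, the thymus-specific serine protease of cortical TEC, had 8.59, 8.61 and 8.66 at day 20, against 6.26, 5.35 and 7.91 at day 4 and 6.65, 6.71 and 5.99 at day 7. It rose by 2.14 ± 0.49 (adjusted p = 0.0011). Ly75, the endocytic receptor DEC-205, rose by 1.90 ± 0.32. Cxcl12, which attracts thymocyte progenitors, had 11.65, 11.52 and 11.57 at day 20, against 9.98, 9.56 and 11.61 at day 4 and 9.99, 9.88 and 10.26 at day 7. The day 4 value of 11.61 is that of array 3, so Cxcl12 overlapped between the times although it passed the test (1.37 ± 0.37), and the mean of its 3 probes did not pass (1.10, adjusted p = 0.12).

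Il7, the cytokine on which early thymocytes depend, had 11.88 on each day 20 array, against 11.36, 11.32 and 11.03 at day 4 and 11.23, 11.22 and 11.62 at day 7, a rise of 0.58 ± 0.19 (adjusted p = 0.012) that did not pass against day 7 alone (0.52, adjusted p = 0.051). Il15 fell by 0.53 on the log2 scale, but the mean of its probes gave -0.17 and did not pass (adjusted p = 0.36). Bmp4 fell by 0.87. Psmb11, the catalytic subunit of the thymoproteasome, had 7.56, 7.44 and 7.49 at day 20, against 6.89, 6.52 and 8.43 at day 4 and 5.62, 6.33 and 6.97 at day 7. Neither Psmb11 (0.70 ± 0.47) nor Ccl25, a chemokine for progenitors (-0.10 ± 0.22), passed the test, and both overlapped between the times. Without the 4 arrays that stood apart Psmb11 passed (0.99, adjusted p = 0.0049). Dll4, the Notch ligand of cortical TEC, was dim and not tested.

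Medullary genes moved downward where they moved, with 7 of 18 lower and 0 higher, a share of falls close to that of all genes. Cd40, the receptor through which T cells license medullary TEC, had 11.33, 10.91 and 10.96 at day 20, against 12.07, 12.14 and 11.90 at day 4 and 11.81, 11.97 and 12.03 at day 7. It fell by 0.92 on the log2 scale with an SE of 0.12 (adjusted p = 5.7e-06). Ltbr, the lymphotoxin receptor, and Relb, its downstream NF-kappaB subunit, fell by 0.88 and 0.84. Aire itself had 11.90, 11.89 and 11.83 at day 20, against 12.20, 12.16 and 11.26 at day 4 and 11.87, 12.08 and 11.78 at day 7. Its groups overlapped and the difference was -0.02 ± 0.19 (adjusted p = 0.94). Cd80, a costimulatory ligand of mature medullary TEC, had a difference of -0.91 ± 0.44 that did not pass (adjusted p = 0.083). Its call depended on the setting. It passed in limma without the 4 arrays that stood apart (-1.02, adjusted p = 0.0018). It also passed with array weights, only the arrays compared, the replicate block, all 41 arrays or the mean of all probes (adjusted p = 0.00019 to 0.037). Aire has a further probe of the opposite sign. Tnfrsf11a, the receptor RANK, did not pass (-0.21 ± 0.32), though it did with array weights (-0.50, adjusted p = 0.014).

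Genes that mark late medullary states held larger shares of falls than all genes tested. The Aire-dependent and cornified lists are of genes short on the genome, with median lengths of 3.56 and 4.24 kb. Of all genes of up to 6.55 kb, 54.8% fell. Of 16 Aire-dependent tissue antigens tested, 8 fell and 1 rose, with a median of -0.89, and 12 fell without the 4 arrays that stood apart. Ins2, an insulin gene, had 5.61, 5.64 and 5.36 at day 20, against 7.05, 7.78 and 7.68 at day 4 and 7.27, 7.23 and 6.47 at day 7. Ambp, a plasma protein of the liver, and the demilune cell proteins Dcpp1, Dcpp2 and Dcpp3 of salivary glands also fell, by 1.27, 1.55, 1.38 and 1.32. The Dcpp genes are close copies of one another, so their probes may share transcripts. Csn2, the milk protein beta-casein, was abundant and lower at day 20 (11.88, 11.67 and 11.67, against 12.77, 12.79 and 12.42 at day 4 and 12.21, 12.31 and 12.61 at day 7). Reg3g, an antimicrobial lectin of the gut, was the member that rose (2.26 ± 0.63).

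Of 15 genes of cornified epithelium, 10 fell and 1 rose, with a median of -0.81. Dmkn, a protein of stratified epithelium, had 10.04, 9.75 and 9.63 at day 20, against 10.96, 10.90 and 11.48 at day 4 and 10.62, 10.88 and 10.76 at day 7. Krt13 had 5.51, 5.51 and 5.52 at day 20, against 6.78, 6.97 and 6.20 at day 4 and 6.88, 6.66 and 6.83 at day 7. Cnfn, of the cornified envelope, fell by 1.14 and Sbsn by 1.54 on the log2 scale, and Krt10, Krt16, Krtdap, Lypd3, Serpinb2 and Sprr1a fell too. All of these except Sprr1a had no overlap between the times. Sprr2a1, a small proline-rich envelope protein, was higher (1.20 ± 0.31) but overlapped.

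Tuft cell genes held the largest share of falls among the epithelial lists. Of 12 tested, 10 fell and 1 rose, with a median of -1.89 against -0.12 over all genes, and 10 fell with any single sham array left out and without the 4 arrays that stood apart. Trpm5, the cation channel of taste signalling, had 7.10, 6.77 and 6.79 at day 20, against 8.41, 8.85 and 9.49 at day 4 and 8.71, 9.16 and 9.15 at day 7, a difference of -2.07 ± 0.26 (adjusted p = 2.3e-06). Gnb3, a G protein subunit of the same cascade, had 7.12, 6.84 and 7.23 at day 20, against 8.53, 8.91 and 9.64 at day 4 and 8.80, 9.21 and 8.91 at day 7. Gng13, its partner gamma subunit, fell by 2.40 and Plcb2, the phospholipase they activate, by 1.26 on the log2 scale. Gnat3, the alpha subunit of the cascade, was also below the early arrays, but its -0.88 did not pass (adjusted p = 0.11).

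Il25, the cytokine that tuft cells release, had 5.24, 4.88 and 4.92 at day 20, against 6.54, 6.44 and 8.19 at day 4 and 7.30, 6.49 and 7.27 at day 7. Ltc4s, which makes leukotriene C4 beside Alox5ap, had 7.00, 6.71 and 6.92 at day 20, against 8.61, 8.90 and 9.63 at day 4 and 8.86, 9.29 and 8.95 at day 7. Avil, Dclk1 and Chat, an actin-bundling protein, a kinase and the enzyme for acetylcholine, fell by 1.85, 1.29 and 1.12, though the other probe of Dclk1 ran the other way. The exception was Sox9, a transcription factor that other epithelial cells share, which rose by 0.65 ± 0.10. The mean over the 12 genes was 7.68 to 7.84 at day 20 and 9.07 to 9.78 on the early arrays. In bulk RNA, fewer cells of a type and less RNA per cell cannot be told apart.

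Neuroendocrine genes followed, with 7 of 11 lower and 0 higher, against 34.0% and 23.7% of all genes. Beside Chga, Cck, a peptide hormone, had 6.70, 6.63 and 6.78 at day 20, against 7.80, 7.96 and 7.46 at day 4 and 8.20, 8.19 and 7.96 at day 7. Chgb, a second granule protein, and Syp, of synaptic-type vesicles, fell by 1.13 and 1.11 on the log2 scale. Sst and Gal, peptide hormones, gave -0.20 and 0.08 and did not pass.

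**Figure D3:**
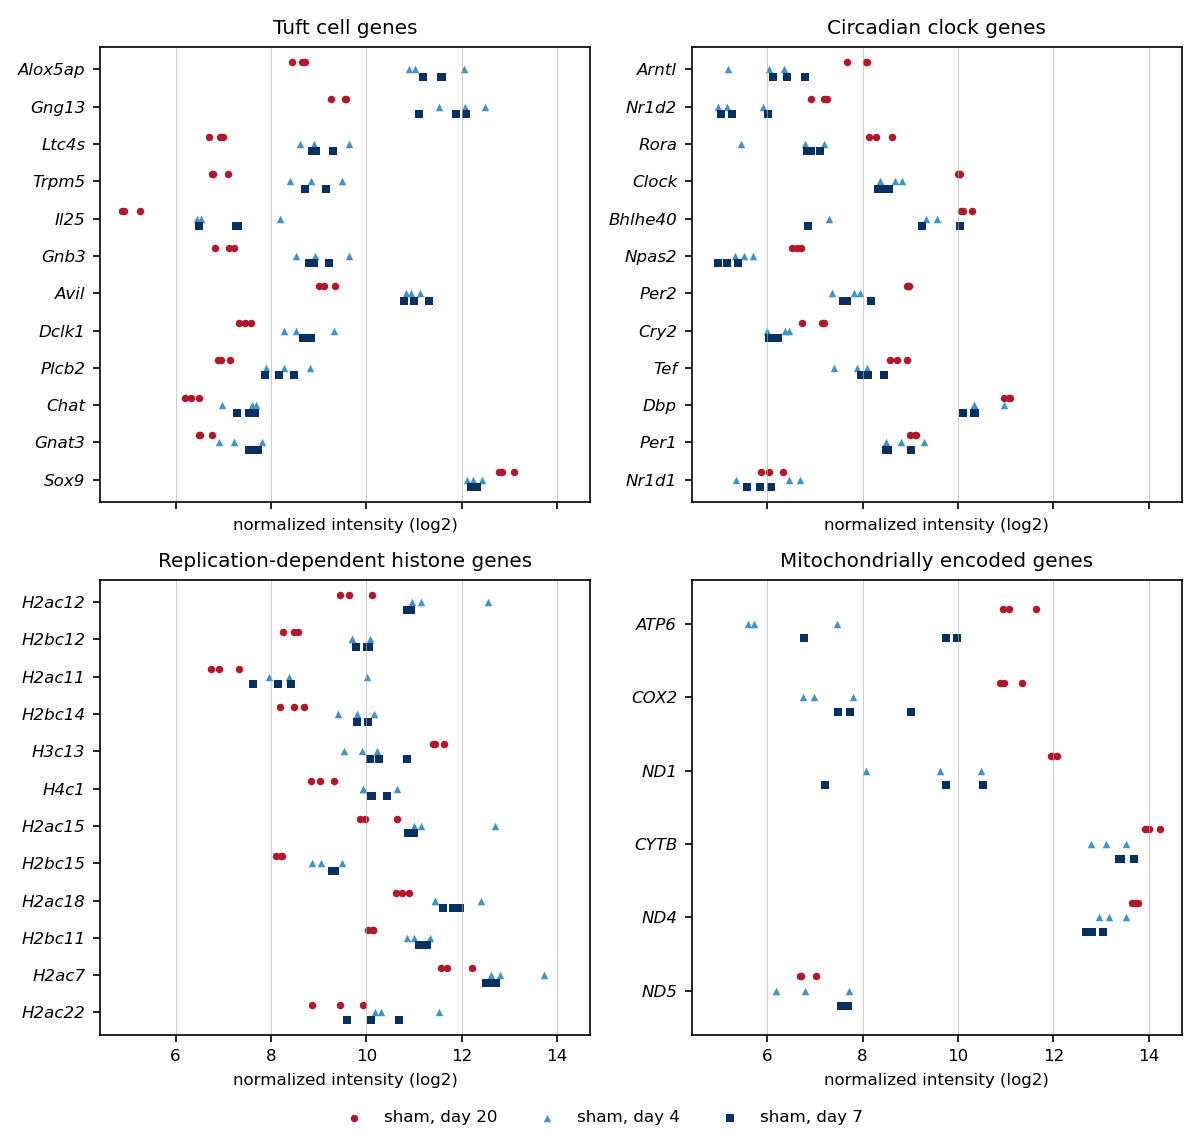
Normalized log2 intensity on each sham array for tuft cell genes, circadian clock genes, replication-dependent histone genes (the 12 of 23 with the largest difference) and mitochondrially encoded genes. Day 20 arrays are red circles, day 4 light blue triangles and day 7 dark blue squares. Day 20 lies to the left of the early arrays for all tuft genes shown except Sox9, and to the right for 10 of 12 clock genes and 5 of 6 mitochondrial genes.

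Most B-lineage, erythroid, myeloid and pan-leukocyte genes tested were lower at day 20, while thymocyte and stromal genes included rises. Of the B-lineage list 5 of 5 genes fell, among them Cd79b of the B cell receptor, with 6.81, 6.20 and 6.23 at day 20, against 8.05, 8.12 and 8.50 at day 4 and 8.04, 8.51 and 8.64 at day 7. The mean of the B-lineage genes was 5.52 to 5.67 at day 20 and 6.89 to 7.66 on the early arrays, with 6 of 6 below the median of all TEC values at day 20 and 2 of 6 at days 4 and 7. The B-lineage genes tested thus passed the filter only through groups other than sham day 20, which favours a fall. The same holds for any tested member of another list with a day 20 mean under 6.68. On the arrays, tested or not, these were 6 of 8 thymocyte, 6 of 11 myeloid and 2 of 5 erythroid genes. They were also 9 of 13 fibroblast, 9 of 14 endothelial and 5 of 10 pericyte genes. Among epithelial lists they were 3 of 12 tuft and 5 of 12 neuroendocrine genes. Among pan-leukocyte genes they were 0 of 7. Of the myeloid list 5 of 7 fell, including the complement genes C1qb (-2.20 ± 0.27) and C1qc (-1.56 ± 0.29). Of the pan-leukocyte list 4 of 7 fell, among them Ptpn6, with 9.16, 9.00 and 9.21 at day 20, against 10.19, 10.62 and 10.95 at day 4 and 10.28, 10.53 and 10.27 at day 7. These list means did not overlap between day 20 and the early arrays (6.78 to 7.05 against 7.51 to 8.13 for myeloid genes, 9.55 to 9.83 against 10.27 to 10.92 for pan-leukocyte genes).

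All 5 erythroid genes tested also fell, 3 when array 1 of day 20 was left out. Hba-a1, an alpha globin with a near-identical copy, had 9.50, 10.67 and 11.14 at day 20, against 11.30, 11.44 and 11.76 at day 4 and 12.10, 11.66 and 11.48 at day 7. Its day 20 values lay below all early ones, but without array 1 of day 20 the difference of -0.72 no longer passed (adjusted p = 0.070). Thymocyte genes had 3 lower and 1 higher of 5, against 34.0% and 23.7% of all genes. The higher one, Bcl11b (0.47), did not pass without array 1 of day 4 or any single day 20 array (adjusted p = 0.054 to 0.078). Cd3d, a chain of the T cell receptor complex, had 6.08, 5.57 and 5.95 at day 20, against 7.42, 7.53 and 11.58 at day 4 and 8.02, 7.64 and 7.58 at day 7. The 11.58 is array 3 of day 4, and the other 5 early arrays lay at least 1 log2 unit above day 20 as well.

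Stromal markers gave smaller shares, with 4 of 9 fibroblast, 4 of 11 endothelial and 4 of 8 pericyte genes lower, and 1, 1 and 2 higher. The endothelial share of falls is near the 34.0% of all genes. Leaving out array 1 of day 20 brought the fibroblast falls to 2. Des, the intermediate filament of pericytes and muscle, had 6.26, 6.17 and 5.94 at day 20, against 7.54, 7.89 and 9.14 at day 4 and 7.75, 7.65 and 7.50 at day 7. Esam, an endothelial adhesion molecule, fell by 1.42 on the log2 scale, and Flt1, a receptor for vascular endothelial growth factor, rose by 1.25. The fibroblast mean was 6.85 to 6.93 at day 20 and 7.18 to 8.54 on the early arrays. The part of cells that pass the sort in the differences of other genes was not tested.

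Most circadian clock genes were higher at day 20. In the core loop, ARNTL (BMAL1) pairs with CLOCK or NPAS2 and activates genes through E-boxes, among them the repressors of the Per and Cry families. ROR factors activate and REV-ERB factors (Nr1d1, Nr1d2) repress Arntl through a shared element, while the output factors DBP and TEF act through D-boxes. Of 12 clock genes tested, 9 rose and 0 fell, with a median of 1.24, and 9 or 10 rose with any single sham array left out. Requiring a level above 6.68 on each sham array left 6 of the genes, of which 4 rose.

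Clock had 10.00, 10.04 and 10.01 at day 20, against 8.82, 8.37 and 8.69 at day 4 and 8.56, 8.32 and 8.38 at day 7, a rise of 1.50 ± 0.17 (adjusted p = 6.9e-07). Arntl had 8.10, 7.67 and 8.07 at day 20, against 6.35, 6.03 and 5.18 at day 4 and 6.40, 6.12 and 6.80 at day 7, a rise of 1.80 ± 0.33. Per2, a repressor of the loop, had 8.97, 8.96 and 8.92 at day 20, against 7.95, 7.82 and 7.35 at day 4 and 8.17, 7.66 and 7.59 at day 7. Activators and a repressor were thus higher on the same arrays. Nr1d2 rose by 1.73, Rora by 1.63, Npas2 by 1.28, Cry2 by 0.83, Tef by 0.76 and Dbp by 0.63. Per1 (0.30), Nr1d1 (0.08) and Bhlhe40 (1.43 ± 0.69) did not pass, although day 20 of Bhlhe40 lay above every early array. The labels used here give no hour of the day for any array.

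The promoters of Arntl and Tef are shown because each holds an element through which this loop is known to work. RefSeq promoter windows on GRCm38.p6, 250 bases before to 50 bases after a transcript start, were available for 10 of the 12 clock genes tested. They were searched on both strands for the E-box CACGTG, the D-box TTANGTAA and the ROR element TAGGTCA, which occur in 7.15%, 2.32% and 2.61% of all 32851 windows. Of 15 windows of the clock genes, 3 held an E-box (Tef and Per1), 1 held a ROR element (Arntl) and 0 held a D-box. Capitals mark the match, in the Arntl window (chr7:113207261-113207560, plus strand) and in 1 of 2 Tef windows with an E-box (chr15:81811164-81811463, plus strand).
Arntl: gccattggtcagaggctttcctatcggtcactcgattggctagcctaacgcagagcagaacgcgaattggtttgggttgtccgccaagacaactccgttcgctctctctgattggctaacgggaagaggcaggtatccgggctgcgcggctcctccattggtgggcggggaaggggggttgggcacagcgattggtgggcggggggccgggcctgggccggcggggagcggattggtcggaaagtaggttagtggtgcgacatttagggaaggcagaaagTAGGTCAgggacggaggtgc
Tef: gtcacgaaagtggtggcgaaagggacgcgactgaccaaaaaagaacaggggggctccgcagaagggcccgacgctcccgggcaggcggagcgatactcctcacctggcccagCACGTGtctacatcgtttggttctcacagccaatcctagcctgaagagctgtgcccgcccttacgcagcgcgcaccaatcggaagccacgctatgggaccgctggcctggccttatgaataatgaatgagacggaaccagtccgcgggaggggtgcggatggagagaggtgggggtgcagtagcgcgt
Per1, whose window also holds an E-box, did not pass the test, and most clock genes that rose hold none of the 3 elements in these windows.

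Histone genes of the replication-dependent class moved the other way. These intronless genes are clustered in the genome, are transcribed mainly in S phase and give mRNAs that end in a stem-loop in place of a poly(A) tail. Of 23 tested, 19 fell and 1 rose, with a median of -0.89, and 14 to 19 fell with any single sham array left out. H2bc12 had 8.49, 8.25 and 8.56 at day 20, against 9.69, 9.70 and 10.07 at day 4 and 10.01, 10.06 and 9.78 at day 7, a difference of -1.45 ± 0.17 (adjusted p = 1.2e-06). H4c1 had 9.02, 8.83 and 9.33 at day 20, against 9.93, 9.93 and 10.64 at day 4 and 10.12, 10.44 and 10.10 at day 7. H3c13 was the exception, with 11.63, 11.43 and 11.40 at day 20, against 10.23, 9.92 and 9.54 at day 4 and 10.85, 10.26 and 10.08 at day 7. Histone genes of a class are near-identical in sequence, so a probe may read several of them.

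Many histone genes lie in head-to-head pairs, and the promoters of H2bc12 and its neighbour H2ac12, which fell by 1.48 on the log2 scale, form such a pair on chromosome 13. Windows were available for 21 of the 23 genes. The CCAAT box, CCAAT on either strand, was found in 20 of 21 (95.2%), against 37.4% of all windows. The letters of the TATA box, TATAAA on either strand and at any position in the window, were found in 12 of 21 (57.1%), against 13.6%. The H2bc12 window (chr13:22035571-22035870, plus strand) overlaps that of H2ac12 on the minus strand (chr13:22035594-22035893), so their motifs are counted in both. Capitals mark both motifs. The TATA match in the H2bc12 window is on the reverse strand and is the one that reads TATAAA in the H2ac12 window.
H2bc12: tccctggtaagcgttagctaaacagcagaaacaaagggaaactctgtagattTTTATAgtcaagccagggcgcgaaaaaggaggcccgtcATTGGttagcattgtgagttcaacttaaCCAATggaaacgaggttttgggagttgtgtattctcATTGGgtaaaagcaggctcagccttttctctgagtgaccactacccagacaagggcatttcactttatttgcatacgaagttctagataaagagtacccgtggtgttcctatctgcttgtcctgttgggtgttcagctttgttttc
These elements are a description of the class, and H3c4, which did not pass (-0.12), holds both as well.

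Cell cycle genes fell in 8 of 18 cases and rose in 1, against 34.0% and 23.7% of all genes. Rrm2, the ribonucleotide reductase subunit of S phase, had 5.42, 5.56 and 5.40 at day 20, against 7.24, 6.90 and 7.28 at day 4 and 6.26, 6.72 and 6.75 at day 7. Mcm2, of the replicative helicase, had 6.96, 6.74 and 6.70 at day 20, against 8.38, 8.24 and 8.55 at day 4 and 7.82, 8.19 and 8.43 at day 7. Aurka and Cenpa, of mitosis, fell by 1.17 and 1.42. The cyclin-dependent kinase inhibitors Cdkn1a, Cdkn1c and Cdkn2a were lower too, by 0.88, 1.07 and 1.51. They belong to a list of 14 p53 and cell cycle inhibitor genes, of which 5 fell and 1, Zmat3, rose. The median of this list was -0.11, and its share of falls was near the 34.0% of all genes. The falls were 3 to 5 with any single sham array left out.

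Mitochondrial genes split by the genome that encodes them. Of 61 nuclear-encoded subunits of oxidative phosphorylation, 37 fell and 2 rose, with a median of -0.33. Cox6b1 had 12.64, 12.63 and 12.72 at day 20, against 13.53, 13.70 and 13.66 at day 4 and 13.48, 13.63 and 13.52 at day 7, a difference of -0.92 ± 0.08 (adjusted p = 7.3e-08). Ndufc1, Ndufs6 and Ndufab1 of complex I fell by 0.87, 0.78 and 0.89. In these 4 genes all 3 day 20 arrays lay below all 6 early arrays. The number that rose was 5 without array 1 of day 7 and 1 without array 3 of day 7 or array 2 or 3 of day 20, and 4 without the 4 arrays that stood apart.

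Of 6 mitochondrially encoded genes tested, 4 rose and 0 fell, with a median of 1.73. COX2, a catalytic subunit of cytochrome c oxidase, had 10.89, 10.96 and 11.34 at day 20, against 7.80, 6.98 and 6.76 at day 4 and 9.02, 7.47 and 7.73 at day 7, a rise of 3.44 ± 0.41 (adjusted p = 1.6e-06). ATP6, of the ATP synthase, had 11.07, 10.95 and 11.63 at day 20, against 7.47, 5.59 and 5.73 at day 4 and 9.99, 9.74 and 6.76 at day 7. ND1 spread as widely on the early arrays, 7.21 to 10.53, and lay at 11.96, 11.96 and 12.08 at day 20. ND4, the brightest of the 4, rose by only 0.69 ± 0.12. CYTB (0.74 ± 0.38) and ND5 (-0.46 ± 0.51) did not pass. Subunits from both genomes work in the same complexes.

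Other housekeeping machinery was lower or followed the background of 34.0% lower and 23.7% higher. Of 24 proteasome subunits 11 fell and 1 rose, Psmb1 having 11.54, 11.39 and 11.45 at day 20, against 12.18, 12.42 and 12.46 at day 4 and 12.10, 12.32 and 12.18 at day 7. Of 49 cytosolic ribosomal protein genes 13 fell and 3 rose, fewer than in the background in both directions, with a median of -0.02. Of 14 genes of hypoxia and glycolysis 7 fell and 1 rose, the falls including the glycolytic enzymes Gapdh (-0.75 ± 0.09), Tpi1 (-0.69) and Aldoa (-0.87). Gapdh, often used as a reference gene, had 11.91, 11.69 and 11.95 at day 20, against 12.53, 12.77 and 12.66 at day 4 and 12.53, 12.54 and 12.58 at day 7. Of 11 genes of cholesterol synthesis and uptake 4 fell, Mvd and Fdps by 1.73 and 1.17, and 1 rose. For Fdps the mean of both its probes gave 0.068, so that its fall belongs to the brighter probe.

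Of 23 splicing factors 9 rose and 2 fell, against 23.7% and 34.0% of all genes, and 12 did not pass. The rises were 6 to 9 with any single sham array left out, 5 against day 7 alone and 12 without the 4 arrays that stood apart, and the falls were 1 without array 3 of day 20. Prpf8, the core protein of the spliceosome, had 9.97, 9.72 and 9.96 at day 20, against 8.83, 8.21 and 8.35 at day 4 and 8.78, 8.68 and 8.54 at day 7. Neat1, the RNA scaffold of paraspeckles, had 9.78, 9.72 and 9.71 at day 20, against 8.26, 7.69 and 6.73 at day 4 and 8.11, 8.10 and 7.21 at day 7. Snhg11, a small nucleolar RNA host transcript, rose by 2.50 ± 0.24 and Snhg5 by 0.75, which did not pass against day 7 alone (0.53, adjusted p = 0.080). These are 3 of the 4 noncoding transcripts tested. Their list mean was 9.36 to 9.48 at day 20, against 7.91 to 8.48 on the early arrays.

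The direction of change was related to how long a gene is on the genome. Gene length is the RefSeq span from first to last base on GRCm38.p6, introns included, known for 8269 of the genes tested. Genes that rose had a median length of 37.3 kb and genes that fell 11.9 kb, against 21.0 kb for those that did neither. In 5 bins of equal size, the median difference was -0.52, -0.29, -0.12, 0.09 and 0.33 from the shortest to the longest genes. The share that rose was 9.07% in the shortest bin and 41.8% in the longest, and the share that fell was 54.8% and 18.0%.

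Spearman's rho between length and the difference was 0.345 across genes, which share arrays and are not independent. It was 0.205 for the same contrast in castrated mice, which share no array with sham, and -0.0312 for day 7 minus day 4. For sham TEC against unoperated TEC it was 0.269 at day 20 and -0.214 at days 4 and 7. The latter holds no day 20 array, but its early sham arrays enter the sham contrast with the opposite sign. It also rests on the unoperated arrays, which varied most, with a median SD of 0.395. Within the sham contrast the relation appeared at every level of expression: within the dimmest, middle and brightest parts of the genes, 3 groups of equal size, the shortest genes had medians of -0.71, -0.60 and -0.37 and the longest 0.28, 0.32 and 0.43. Histone genes, with a median length of 0.502 kb, and mitochondrially encoded genes, with 1.05 kb, are both short and moved in opposite directions. The Aire-dependent (3.56 kb), cornified (4.24 kb), B-lineage (3.3 kb), myeloid (3.1 kb) and erythroid (1.4 kb) lists also had medians within the shortest bin. In that bin 54.8% of all genes fell. Other lists with medians in that bin moved in either direction. Their median differences were 0.36 for immediate early (3.4 kb), 0.22 for class I (4.97 kb) and 0.19 for heat shock genes (5.36 kb). They were 0.04 for pan-epithelial (5.01 kb) and -0.02 for ribosomal protein genes (3.27 kb). They were -0.10 for chemokine (4.74 kb), -0.34 for acute-phase (4.26 kb) and -0.48 for unfolded protein response genes (6.07 kb). What lies behind the relation was not tested.

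**Figure D4:**
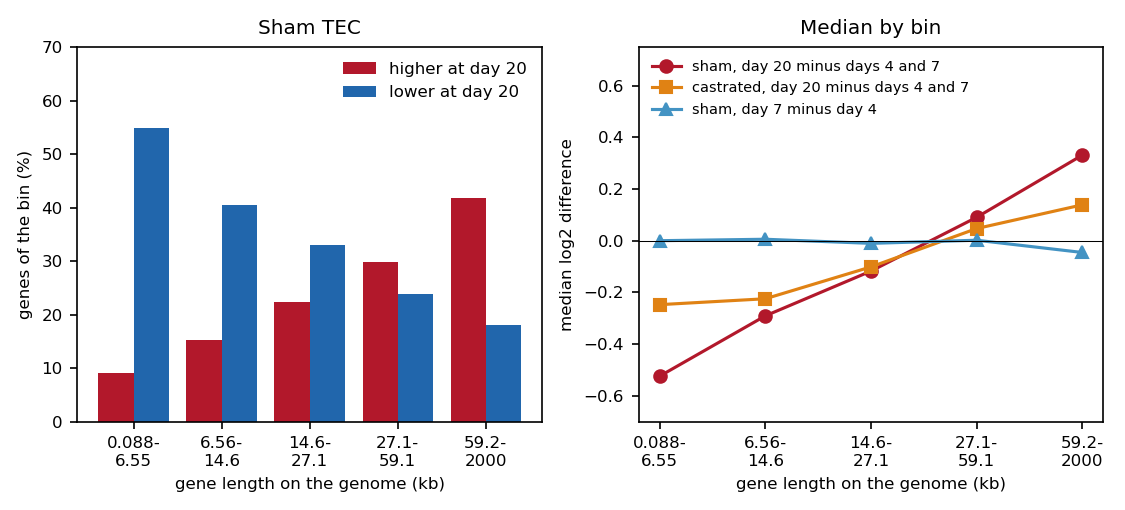
Left, share of genes higher (red) and lower (blue) at day 20 in sham TEC, in percent, in 5 bins of gene length on the genome in kb. Right, median log2 difference per bin for day 20 minus days 4 and 7 in sham (red circles) and castrated TEC (orange squares) and for day 7 minus day 4 in sham TEC (light blue triangles). In sham TEC the median runs from -0.52 in the shortest bin to 0.33 in the longest, while day 7 minus day 4 stays between -0.05 and 0.01.

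Immediate early genes, which cells induce within minutes of a stimulus or of tissue handling, went in both directions. Of 17 tested, 7 were higher and 4 lower, against 23.7% and 34.0% of all genes. Fosb had 12.66, 12.75 and 12.74 at day 20, against 10.95, 11.22 and 10.06 at day 4 and 11.17, 10.74 and 10.97 at day 7, a rise of 1.86 ± 0.24 (adjusted p = 2.7e-06). Ier2 had 8.11, 8.36 and 8.28 at day 20, against 4.81, 5.46 and 5.22 at day 4 and 5.79, 5.64 and 5.62 at day 7. Egr3, Jund and Junb fell by 1.21, 1.42 and 0.70 on the log2 scale. So Jun (0.46) and Junb, members of one family, differed in direction within these arrays.

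Stress pathways differed among themselves. Their counts are read against 23.7% higher and 34.0% lower of all genes tested. Of 14 genes of the unfolded protein response 6 fell and 2 rose (0 without array 1 or 3 of day 20, 1 without array 2 of day 20 or array 3 of day 4 or day 7), Ddit3, the transcription factor CHOP, having 8.84, 8.86 and 9.09 at day 20, against 9.94, 10.01 and 10.37 at day 4 and 10.30, 10.10 and 10.33 at day 7. Hmox1, heme oxygenase, had 6.42, 6.41 and 6.82 at day 20, against 8.63, 8.96 and 7.86 at day 4 and 9.36, 8.78 and 8.94 at day 7. Gpx2, a glutathione peroxidase, fell by 1.59 with an SE of 0.11 (adjusted p = 8.8e-09). Slc7a11, the cystine transporter that supplies glutathione, rose by 1.26. Of 16 antioxidant genes in all, 6 fell, a share of falls near that of all genes, and 1 rose. Of 13 heat shock and chaperone genes 4 rose and 1 fell, with a median of 0.19. The 4 became 1 without array 2 of day 20, and 2 without array 1 or 3 of day 20 or array 3 of day 4 or day 7. Hsp90aa1, a cytosolic chaperone, had 9.08, 10.13 and 9.42 at day 20, against 8.64, 7.39 and 5.26 at day 4 and 9.38, 8.68 and 6.49 at day 7. Its groups overlapped, and its rise of 1.90 ± 0.71 (adjusted p = 0.029) did not pass without array 2 or 3 of day 20 or array 3 of day 4 or day 7 (adjusted p = 0.062 to 0.12) or against day 7 alone (adjusted p = 0.18).

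Acute-phase genes and steroid targets were called in shares near those of all genes tested, 23.7% higher and 34.0% lower. Of 13 acute-phase genes 4 fell and 3 rose, with 2 falls without array 3 of day 20 and 7 without the 4 arrays that stood apart, the falls including the plasma proteins Orm1, with 8.37, 7.91 and 8.05 at day 20, against 9.33, 9.45 and 9.80 at day 4 and 8.94, 9.28 and 9.26 at day 7, and Hp, by 1.68. The receptors of interleukin 6 family cytokines, Osmr (1.78 ± 0.36) and Il6st (0.78 ± 0.18), rose. Among 12 glucocorticoid and androgen response genes 4 rose and 4 fell, with 2 falls without array 2 of day 4 or array 1 of day 20. Klf9, a glucocorticoid target, had 11.43, 11.41 and 11.34 at day 20, against 10.28, 10.09 and 9.89 at day 4 and 10.15, 9.68 and 9.19 at day 7. Hsd11b1, which regenerates active glucocorticoid, had 8.07, 8.20 and 8.11 at day 20, against 9.63, 9.77 and 11.71 at day 4 and 9.68, 9.48 and 9.52 at day 7.

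Among growth factor genes 8 of 26 were higher and 8 lower, near the 23.7% and 34.0% of all genes tested. Fgfr2, whose epithelial isoform receives Fgf7 and Fgf10 from the stroma, had 12.28, 12.33 and 12.27 at day 20, against 10.99, 10.86 and 10.35 at day 4 and 10.74, 10.57 and 10.75 at day 7, a rise of 1.59 ± 0.12 (adjusted p = 2.6e-08) that 1 of its 3 other probes did not share in sign. Fgf21, an endocrine growth factor that TEC express, had 11.36, 10.90 and 11.11 at day 20, against 12.71, 12.54 and 12.21 at day 4 and 12.61, 12.65 and 12.68 at day 7. It fell 2.72-fold (-1.44 ± 0.11). In both genes the day 20 arrays stood clear of all early arrays.

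Of 10 Notch pathway genes 4 rose and 1 fell, against 23.7% and 34.0% of all genes, which apply to the Wnt list too. Notch1 had 9.55, 9.24 and 9.23 at day 20, against 7.14, 5.98 and 5.16 at day 4 and 7.56, 7.25 and 6.14 at day 7, and the ligand Dll1 rose by 1.66 and the receptor Notch3 by 0.86. Hes6 of the Hes family fell by 1.04, but the mean of its probes gave -0.68 and did not pass (adjusted p = 0.35). Of 13 Wnt pathway genes 6 rose and 2 fell (1 without array 2 of day 20), with the nuclear effector Tcf7l2 (1.04) and the receptor Fzd6 (0.87) higher and the ligand Wnt10b (-0.93) lower. The medians were 0.13 for the Notch list and 0.20 for the Wnt list.

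Of 13 thymic chemokine genes 3 rose and 4 fell, shares near those of all genes, with 2 falls without array 3 of day 20. Cxcl16 had 10.03, 9.72 and 9.83 at day 20, against 10.97, 11.23 and 11.12 at day 4 and 11.26, 11.15 and 11.24 at day 7. Cxcl1, which attracts neutrophils, fell by 1.58, while Cx3cl1, fractalkine, rose by 0.87 and Ackr4, a scavenging receptor, by 1.48. Of 10 class II presentation genes 3 fell and 1 rose, against 34.0% and 23.7% of all genes. H2-Oa, of the molecule that restrains peptide loading, had 11.54, 11.15 and 11.25 at day 20, against 12.44, 12.58 and 12.46 at day 4 and 12.25, 12.50 and 12.38 at day 7. H2-Aa, a class II alpha chain, had 12.49, 12.52 and 12.58 at day 20 but 11.19, 9.62 and 7.27 at day 4 and 11.53, 11.08 and 9.58 at day 7, a rise of 2.49 ± 0.78 that did not pass against day 7 alone (1.80, adjusted p = 0.10). The bright H2-Eb1 fell by 0.29, which did not pass with all 41 arrays in the fit (adjusted p = 0.15), so the class II chains did not move together.

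The counts of the next 4 lists are read against 23.7% higher and 34.0% lower of all genes tested. Of 20 interferon response genes 6 rose and 3 fell, with 8 and 5 without the 4 arrays that stood apart. Stat2, of the type I interferon signal, rose by 1.33 and Irgm1 by 0.72, and Irf7 fell by 0.99. Of 12 class I presentation genes 2 rose (4 without the 4 arrays that stood apart) and 2 fell, the immunoproteasome subunit Psmb10 falling by 0.97 and Nlrc5, a transactivator of the class, among those that rose. Of 28 matrix genes 8 rose, a share near that of all genes, and 5 fell, a smaller share. The rises were 5 without array 2 of day 7 or array 2 or 3 of day 20. Hspg2, the basement membrane proteoglycan perlecan, had 10.48, 10.24 and 10.35 at day 20, against 8.17, 8.77 and 9.73 at day 4 and 8.37, 8.21 and 8.17 at day 7, and Timp1, a protease inhibitor of injured tissue, fell by 1.26. Of 13 solute carriers 6 rose and 2 fell, with Slc38a2, a glutamine transporter, at 12.88, 12.95 and 13.03 at day 20, against 10.82, 11.22 and 10.76 at day 4 and 11.14, 11.04 and 11.07 at day 7.

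Few or no genes passed between the early days. Day 7 minus day 4 gave 0 genes past the threshold in limma, with 625 at an unadjusted p under 0.05, and 0 to 25 genes passed under other settings. Day 20 differed from each of them alone, in 4409 genes (53.3%) against day 4, 1798 higher (21.7%) and 2611 lower (31.5%), and in 4062 (49.1%) against day 7, 1627 higher (19.7%) and 2435 lower (29.4%). These comparisons share the day 20 arrays.

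Unoperated mice of the same age place the times. Sham TEC of day 20 differed from unoperated TEC in 4041 genes (48.8%), 1481 higher (17.9%) and 2560 lower (30.9%). Sham TEC of days 4 and 7 differed from unoperated TEC in 244 genes (2.95%), 77 higher (0.93%) and 167 lower (2.02%). The unoperated arrays varied most, with a median SD of 0.395, and the smaller count depended on them, at 720, 3 and 973 genes without unoperated array 1, 2 or 3. Both comparisons share the unoperated arrays. The later sham group, not the earlier ones, was thus the one further from unoperated TEC in number of genes called.

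The same contrast in castrated TEC, which share no array with sham TEC, gave 1521 genes higher (18.4%) and 2464 lower (29.8%), 48.1% together. On the first component of all 24 TEC arrays, the day 20 arrays of both operations lay at 0.284 to 0.38. All other arrays lay at 0.011 or below. Sham day 20 arrays correlated at 0.927 to 0.957 with castrated day 20, and at 0.792 to 0.91 with sham day 4. Time after surgery and a processing difference common to both day 20 groups cannot be told apart. Across genes the sham and castrated differences correlated with r = 0.558 (Spearman's rho 0.555, 8277 genes, which are not independent). Of the genes called, 2687 were called in both, 56.2% of the sham calls and 67.4% of the castrated calls, and 2469 of these had the same sign. The difference between the contrasts passed the test for 1893 genes (22.9%), 883 (10.7%) with a higher value in sham and 1010 (12.2%) with a lower one, and 1404 of these were among the 4777 called in sham.

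Some lists moved in the same direction in both operations. Tuft genes fell in 10 of 12 cases in sham and 6 of 12 in castrated TEC, with medians of -1.89 and -0.79, and the contrasts differed for 6 genes, 5 of them lower in sham (2 without sham array 2 of day 20, 3 without castrated array 3 of day 20). Nuclear-encoded oxidative phosphorylation genes fell in 37 and 24 of 61 cases. Clock genes rose in 9 of 12 cases in sham and in 5 in castrated TEC, where 2 fell (3 rose without castrated array 2 of day 20, and 1 fell without those that stood apart, or without castrated array 1 of day 20, 3 of day 4 or 3 of day 7), and the contrasts differed for 2, Arntl (1.53) and Per1.

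For other lists the contrasts differed. Cornified genes had 10 lower and 1 higher of 15 in sham but 0 lower and 8 higher in castrated TEC, and 14 of 15 differed between the contrasts, 13 of them lower in sham. The 8 became 5 without castrated array 1 or 3 of day 20. Cnfn averaged 5.85 at day 20 and 6.99 on the early arrays in sham TEC, and 7.50 and 6.29 in castrated TEC. Aire-dependent antigens had 8 lower and 1 higher of 16 in sham, against 1 lower and 5 higher in castrated TEC, and 10 differed, all lower in sham. The 5 became 3 without castrated array 1 or 2 of day 20, and 9 without the 4 arrays that stood apart. Histone genes fell in 19 of 23 cases in sham and in 1 in castrated TEC, and 10 differed, all lower in sham (5 without castrated array 1 of day 20 and 6 without sham array 2 of day 20). In the other direction 11 of 17 immediate early genes differed, all with a higher value in sham, where 7 rose and 4 fell, against 1 and 11 in castrated TEC. Across all genes, 149 (1.8%) were lower in sham and higher in castrated TEC, and 69 (0.834%) the reverse. Averaged over both operations, several genes called in sham did not pass: Il7 (0.04), Pax1 (0.48), Snhg5 (0.34), Fezf2 (-0.15), Cdkn1c (-0.01), Notch3 (0.04) and Orm1 (-0.13), with adjusted p-values of 0.055 to 0.95.

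**Figure D5:**
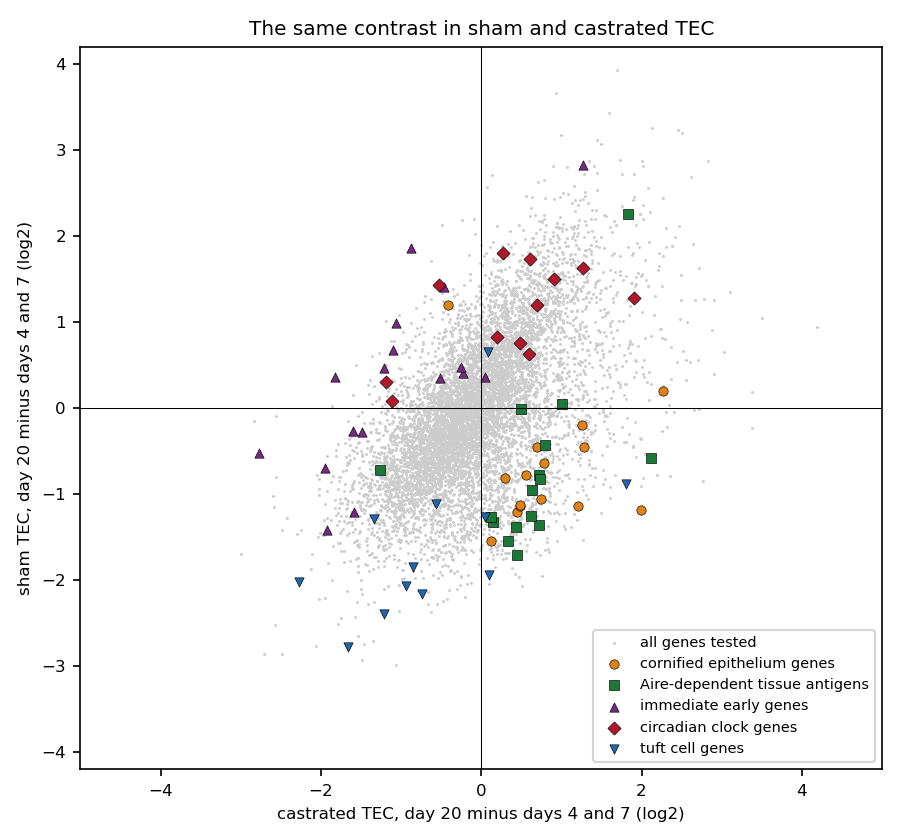
Log2 difference of day 20 minus days 4 and 7 in sham TEC (vertical) and in castrated TEC (horizontal) for the 8277 genes tested (grey) and the members of 5 lists. Tuft genes (blue) and clock genes (red) lie mostly on one side of 0 on the sham axis (below and above it), while cornified genes (orange) and Aire-dependent antigens (green) lie mostly below 0 in sham and above 0 in castrated TEC.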

How the data were processed

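The deposited values are normalized log2 intensities of Illumina bead arrays, in a separate normalization for TEC and for non-epithelial cells. The labels state neither the base of the logarithm nor the normalization method, and base 2 was taken from the range of the values. The submitters' processing notes name limma with no version or role. Of 24671 probes, 21242 had values in TEC, 20825 had 1 gene symbol, 11 had several and 3835 had none in the platform annotation. For genes with several probes the brightest on average was kept, and genes above the median of all TEC values (6.68) in at least 1 group mean were tested. limma 3.58.1 in R 4.3.3 (lmFit, eBayes with a trend) was fitted to 8 group means over 24 TEC arrays, with 16 residual degrees of freedom. Precision is limited by how many arrays each group has.

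The named genes are the 12 largest non-overlapping changes in each direction, up to 4 genes of smallest p in each list, and a few genes named in any case. Further list members were named after their values were seen. The gene lists and the comparison itself were chosen with earlier results of these data known. Deviations of same-numbered arrays from their group means correlated at 0.0254 to 0.072 between day 20 and day 4. The values were -0.155 to -0.0571 between day 20 and day 7, and 0.121 to 0.188 between days 4 and 7. Differently numbered arrays were not compared, so these values cannot show whether the numbers pair the arrays. A replicate block was fitted as an alternative for each comparison, and 0 genes passed for day 7 minus day 4 there as well. The fitting step was tested on simulated data. Promoter sequences are from RefSeq. Epcam and Ptprc were not analysed here.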

Additional observations from a re-analysis of the deposited data

Results flagged for a closer look

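The day 20 contrast differed between sham and castrated TEC in 1893 genes by limma's test of the difference, given as sham minus castrated on the log2 scale. Among the largest, Fosb (2.74), Pdk4 (2.68), Cyp1b1 (2.51), Cldn11 (2.47) and Ryr3 (2.42) had a higher contrast in sham. Pdk4, a kinase that limits pyruvate oxidation, did not pass in sham (-0.15) and fell by 2.83 in castrated TEC, and Cldn11 likewise gave -0.10 and -2.56. Ryr3, a calcium release channel, rose by 2.19 in sham and gave -0.24 in castrated TEC.

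The contrast was lower in sham for Akr1c12 (-3.62), Rbbp7 (-3.24), Hnrnpa2b1 (-3.20), Serpinb2 (-3.18) and Tmem45a (-3.14). For Akr1c12, Rbbp7 and Hnrnpa2b1 the early castrated arrays spread widely, with SDs of 1.62, 1.83 and 1.61, and Akr1c12 has close relatives whose transcripts a probe may share. The Rbbp7 difference had an adjusted p of 0.047 and did not pass without a trend (0.050), with a robust trend (0.053) or with any 1 of 15 arrays left out (0.051 to 0.096). The Hnrnpa2b1 difference did not pass without any single day 20 array of either operation or without castrated array 2 of day 4 (0.051 to 0.068), and the mean of its probes gave -1.13 (0.10).

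Among the genes already described, the difference was 2.23 for Rgma, 1.84 for COX2, 1.67 for Tanc1 and 1.58 for Bmpr1a, each of which rose in both operations. It was -1.45 for Cox6a2 and -1.29 for Bex4, which fell in both. Among epithelial genes it was -0.85 for Aire, -2.90 for Cd80, -0.83 for Fezf2, -1.31 for Fgf21, 1.08 for Il7 and 0.96 for Trp63. Aire and Cd80 rose in castrated TEC (0.83 and 1.99) and did not pass in sham in the main fit.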

How the results depend on the processing

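The count of 4777 genes was 4030 to 4759 with any single array left out, 4885 with the replicate block, 1954 when a 2-fold change was also asked for, and 3177 when a gene had to lie above 6.68 on each sham array. With array weights, 6138 genes passed against day 7, 25 for day 7 minus day 4, 4394 for sham minus castrated and 1725 for days 4 and 7 minus unoperated. Day 7 minus day 4 gave 1 gene without the filter, 4 with all 41 arrays, and 0 to 10 with 1 array left out (10 without array 1 of day 4). Sham minus castrated gave 1204 to 2200, the lowest without sham array 2 of day 20. Fitting the compared arrays alone gave 2175 genes for day 20 minus unoperated and 0 for days 4 and 7 minus unoperated (869 at an unadjusted p under 0.05). The last comparison gave 157 without the filter, 447 with all 41 arrays, 1367 without the 4 arrays that stood apart, and 3 to 973 with 1 array left out. The mean of all probes turned Cd52 (0.024) and Fdps (0.068) positive. Averaging sham and castrated TEC turned Cnfn (0.035), Il6st (-0.17) and Aire (0.41), whose contrasts differ between the operations. The cause of these shifts was not tested. The alternative that leaves out arrays that stood apart and the filter on each sham array were chosen after seeing the data. Unoperated array 2, without which days 4 and 7 minus unoperated gave 3 genes, was not among the 4 arrays left out. Dim genes, and the unstated batch of the day 20 arrays, limit what the contrast can show.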

Other observations

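Of the 3899 genes too dim to be tested, the median difference at day 20 was -0.13, and 60.5% were below 0. Of the 2039 genes called in sham TEC that had several probes, 1370 (67.2%) had all probes of the same sign and 669 had at least 1 of the opposite sign. Among the genes named above, Il15, Ccl25, Sbsn, Ndufs6, Tpi1, Slc7a11 and Slc38a2 each had 1 probe of the opposite sign, and Per1 had 2.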
